A study of Homo sapiens with 4 samples.

Results

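The 7 genes described here belong to the response of cells to amino acid shortage and oxidative stress. They are the amino acid transporter genes SLC7A5 and SLC7A11, the genes TRIB3, CHAC1, PHGDH and CEBPB, which are linked to the transcription factor ATF4, and TXNRD1, which encodes a thioredoxin reductase. They were chosen by function among 1176 genes that the authors deposited, whose group means differed by about 2-fold or more. The difference between the groups was thus used in choosing the members and is described here with no test. RCC4, a line of human renal carcinoma cells that lack functional VHL, was infected with lentiviruses carrying a hairpin against the transcript MIRE (shMIRE, genotype label MIRE knockdown, n = 2) or a control hairpin (shControl, genotype label WT, n = 2). All 4 libraries were collected on day 3 and are labelled as epithelial cells. The labels do not say if the 2 libraries of a group stem from different infections or how many hairpin sequences were used, so their spread may be technical.

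When amino acids run short or the endoplasmic reticulum is stressed, kinases phosphorylate the translation factor eIF2, general translation slows and ATF4 mRNA is translated more. ATF4, often paired with C/EBP proteins, activates genes for amino acid uptake, serine synthesis and the restraint of its own activity. NRF2, a transcription factor that answers to oxidants and electrophiles, drives TXNRD1 and, with ATF4, SLC7A11, whose product brings in the cystine used to make glutathione. Loss of VHL, which is a property of the line, leaves hypoxia-inducible factors active at normal oxygen; their activity in shMIRE and shControl cells was not measured here.

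In shMIRE cells 6 of the 7 genes were lower and 1, CEBPB, was higher. The fold, taken as the larger group mean of the deposited values over the smaller, ran from 2.04 for SLC7A11 to 4.61 for PHGDH among the lower genes and was 2.002 for CEBPB. In all 7 genes the shMIRE and shControl libraries did not overlap. This was so of almost every listed gene: 60.0% of the 1176 did not overlap and were lower, and 38.9% did not overlap and were higher, so the count says nothing particular about the 7. The median log2 fold change was -1.49 over the 7 genes and -1.16 over all listed genes, but these medians mix lower and higher genes. Among the listed lower genes with values above 0 in both groups the median fold was 2.80. SLC7A5 (2.81) was at that median, SLC7A11 (2.04) and CHAC1 (2.34) were under it, and TXNRD1 (3.27), TRIB3 (4.23) and PHGDH (4.61) were over it.

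**Figure D1:**
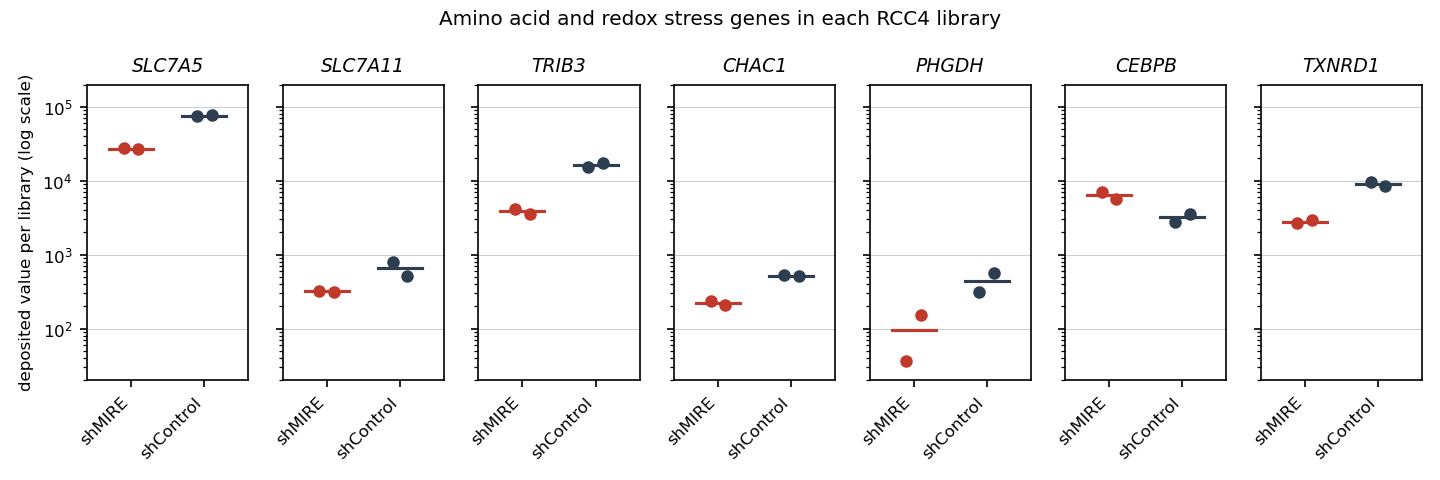
Deposited value of each gene in each library (y axis, log scale; 2 shMIRE and 2 shControl libraries, replicate 1 left and replicate 2 right in each group, horizontal lines are group means). The shMIRE points lie below the shControl points in 6 genes and above them in CEBPB, and the 2 PHGDH libraries of shMIRE, at 37 and 153, lie far apart.

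Summed over the 1176 genes, the libraries held values of 2043204 and 2002994 in shMIRE and 2476944 and 2514039 in shControl, and total sequencing depth is not known. MIRE was taken to be SAP30-DT, for which RefSeq gives that name as a synonym; it is not among the listed genes, so its depletion was not checked here. Of 11 markers of renal epithelial and carcinoma cells 2 were listed, LRP2 (0 and 0 in shMIRE, 6 and 18 in shControl) and MIOX (1562 and 1324 in shMIRE, 575 and 772 in shControl), and the other markers were not analysed here. Of markers of other cell types, 2 of 8 for leukocytes, 2 of 7 for endothelial cells and 3 of 9 for fibroblasts were listed. Their summed values were 173 to 177 in shMIRE and 53 to 73 in shControl for leukocytes, 241 in both shMIRE libraries and 43 to 59 in shControl for endothelial cells, and 4524 to 4827 in shMIRE and 1392 to 1459 in shControl for fibroblasts. The markers did not all go one way: the endothelial FLT1 (0 and 0 in shMIRE, 3 and 11 in shControl) and the fibroblast PDPN (7 and 0 in shMIRE, 13 and 38 in shControl) were lower in shMIRE, and the other 5 were higher. The defining markers PTPRC, PECAM1 and PDGFRA were not analysed here. The fibroblast sum is mostly COL1A1, and the part of any of these markers in the results below was not tested.

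SLC7A5 encodes LAT1, the light chain of a transporter that exchanges large neutral amino acids such as leucine across the plasma membrane. The gene (ENSG00000103257) spans chr16:87830023-87869488 on the minus strand of GRCh38. Its values were 27424 and 26870 in shMIRE, against 75747 and 76665 in shControl. The 2 libraries of each group lay close together and the groups were far apart: the lowest shControl value was 2.76 times the highest shMIRE value. The group means were 27147 ± 391.7 in shMIRE and 76206 ± 649 in shControl (SD, n = 2 each), 2.81-fold lower in shMIRE, with a log2 fold change of -1.49 and a standard error of 0.06. SLC7A5 ranked 9 of 1176 by value in shMIRE and 2 in shControl.

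SLC7A11 encodes xCT, the transporter that imports cystine in exchange for glutamate. The gene (ENSG00000151012) spans chr4:138164097-138242349 on the minus strand. It had values of 328 and 315 in shMIRE, against 797 and 514 in shControl. The shMIRE libraries agreed closely while the shControl libraries differed by 1.55-fold, and of the 233 listed genes within a 2-fold range of its shControl level 7 differed more. The means were 321.5 ± 9.19 in shMIRE and 655.5 ± 200.1 in shControl (SD, n = 2 each), 2.04-fold lower in shMIRE (log2 fold change -0.99, standard error 0.24). Without shControl replicate 1 the log2 fold change was -0.68, and without shControl replicate 2 it was -1.31. SLC7A11 is thus close to the lower edge of the list: of 629 lower genes with values above 0 in both groups it had the 30th smallest fold.

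TXNRD1 encodes the cytosolic thioredoxin reductase, a selenoprotein that passes electrons from NADPH to thioredoxin. The gene (ENSG00000198431) spans chr12:104215779-104350305 on the plus strand. Its values were 2678 and 2937 in shMIRE, against 9733 and 8616 in shControl. The groups stood well apart, with the lowest shControl value 2.93 times the highest shMIRE value. The means were 2807.5 ± 183 in shMIRE and 9174.5 ± 790 in shControl (SD, n = 2 each), 3.27-fold lower in shMIRE (log2 fold change -1.71, standard error 0.09).

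CHAC1 encodes an enzyme of the cytosol that breaks down glutathione, and it is among the targets induced when ATF4 is active. The gene (ENSG00000128965) is short and spans chr15:40952962-40956519 on the plus strand. It had values of 237 and 210 in shMIRE, against 525 and 523 in shControl. The shControl libraries were close together and the shMIRE libraries differed by 1.13-fold. The lowest shControl value was 2.21 times the highest shMIRE value. The means were 223.5 ± 19.1 in shMIRE and 524.0 ± 1.41 in shControl (SD, n = 2 each), 2.34-fold lower in shMIRE (log2 fold change -1.23, standard error 0.15). SLC7A11, which brings in the cystine for glutathione synthesis, and CHAC1, which degrades glutathione, were thus both lower in shMIRE.

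PHGDH encodes phosphoglycerate dehydrogenase, the first enzyme of serine synthesis from a glycolytic intermediate. The gene (ENSG00000092621) spans chr1:119648411-119744226 on the plus strand. Its values were 37 and 153 in shMIRE, against 311 and 564 in shControl. It had the largest fold of the 7 and also the widest spread: the shMIRE libraries differed by 4.14-fold, and only 1 of 197 listed genes within a 2-fold range of its shMIRE level differed more. The means were 95.0 ± 82.0 in shMIRE and 437.5 ± 179 in shControl (SD, n = 2 each), 4.61-fold lower in shMIRE (log2 fold change -2.46, standard error 0.73). The size of the difference turned on single shMIRE libraries, with a log2 fold change of -1.45 without shMIRE replicate 1 and -3.47 without shMIRE replicate 2.

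The spread of PHGDH was shared with other genes, a comparison made after its values were seen. Of 1025 listed genes with a mean value over 20, 27, PHGDH among them, were more than 2 times higher in shMIRE replicate 2 than in shMIRE replicate 1 and also more than 1.5 times higher in shControl replicate 2 than in shControl replicate 1. The other 3 combinations of high and low replicates held 2, 3 and 3 genes. Over all listed genes, the log2 differences between replicates 1 and 2 of shMIRE and of shControl had a correlation of 0.032. Of the 27 genes, 25 were lower in shMIRE, as were 713 of all 1176 listed genes, and 2 were higher. The 2 higher genes were B3GAT2 (162 and 428 in shMIRE, 103 and 190 in shControl) and COL17A1 (58 and 117 in shMIRE, 9 and 35 in shControl). The rule asked for a wider ratio in shMIRE than in shControl, which may favour genes that are low in shMIRE. From the lower genes, IRS4, CDKN2A and CDX2 are given as examples, with no rule for choosing them. IRS4, an insulin receptor substrate, had values of 96 and 318 in shMIRE, against 605 and 997 in shControl. The cell cycle inhibitor gene CDKN2A had 42 and 160 in shMIRE, against 294 and 586 in shControl. The developmental transcription factor gene CDX2 showed the same order of libraries, with 8 and 32 in shMIRE, against 50 and 130 in shControl. The labels do not name the cells in which the lentiviruses were made, and in bulk RNA fewer cells of a type and less RNA per cell cannot be told apart. The part of RNA from other cells in the PHGDH values was not tested.

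CEBPB encodes C/EBPβ, a transcription factor that dimerises with ATF4 and also serves in inflammatory gene expression. The gene (ENSG00000172216) spans chr20:50190734-50192689 on the plus strand. It was the 1 gene of the 7 that was higher, with values of 7083 and 5730 in shMIRE, against 2791 and 3608 in shControl. Both groups were spread, by 1.24-fold in shMIRE and 1.29-fold in shControl, but did not meet, as the lowest shMIRE value was 1.59 times the highest shControl value. The means were 6406.5 ± 957 in shMIRE and 3199.5 ± 578 in shControl (SD, n = 2 each), 2.002-fold higher in shMIRE (log2 fold change 1.01, standard error 0.17). Its ratio of group means was the smallest of all 463 genes listed as higher, so it sits at the very edge of the list.

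TRIB3 encodes a pseudokinase that is induced by ATF4 and CHOP and restrains ATF4 and AKT. The gene (ENSG00000101255) spans chr20:362835-397559 on the plus strand. It had values of 4096 and 3598 in shMIRE, against 15416 and 17134 in shControl. The lowest shControl value was 3.76 times the highest shMIRE value, the widest gap among the 7. The means were 3847 ± 352 in shMIRE and 16275 ± 1215 in shControl (SD, n = 2 each), 4.23-fold lower in shMIRE (log2 fold change -2.08, standard error 0.10). By value TRIB3 ranked 119 of 1176 in shMIRE and 20 in shControl, whereas CEBPB ranked 70 in shMIRE and 203 in shControl.

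**Figure D2:**
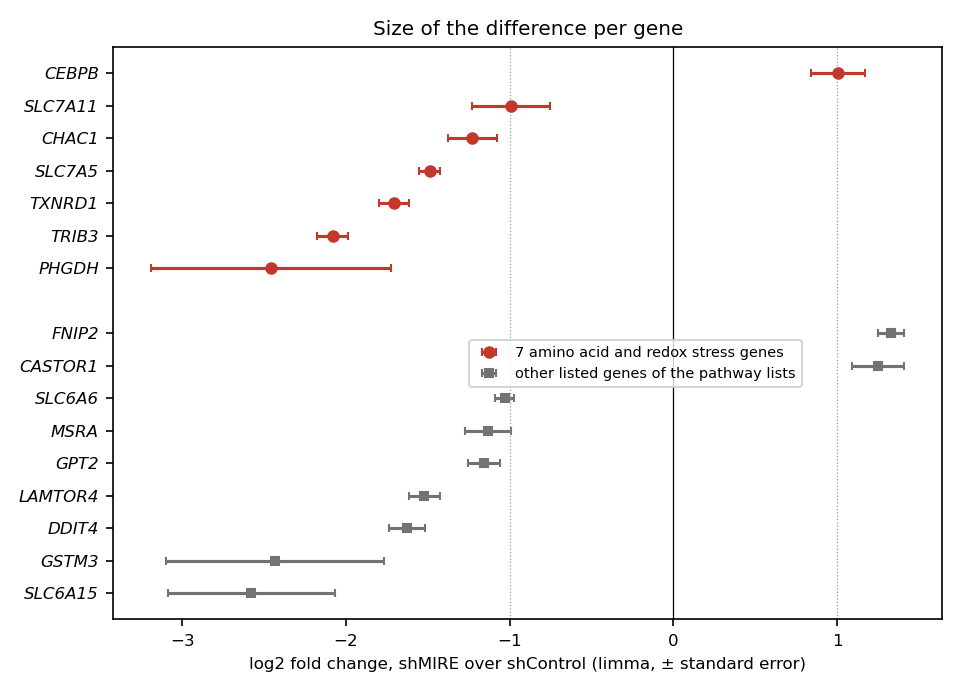
Log2 fold change of shMIRE over shControl (x axis, limma on log2 of the value plus 1; bars are standard errors; dotted lines mark a 2-fold difference) for the 7 genes (circles) and the other listed pathway genes with values above 0 in both groups (squares). CEBPB at 1.01 and SLC7A11 at -0.99 lie at the 2-fold lines, and PHGDH at -2.46 has the widest bar of the 7.

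Because the genes differ in length, levels between genes were compared as value per kilobase of all annotated exons. That length can exceed the length of the mRNA made in these cells. For PHGDH it was 9217 bases, although its longest annotated 3′ UTR had 353 bases, so its level per kilobase may be understated. The order with other lengths was not examined. On this scale the order in shMIRE was SLC7A5 (5721), CEBPB (3275), TRIB3 (1120), TXNRD1 (419), CHAC1 (109), SLC7A11 (33.3) and PHGDH (10.3). In shControl it was SLC7A5 (16060), TRIB3 (4739), CEBPB (1636), TXNRD1 (1368), CHAC1 (255), SLC7A11 (68.0) and PHGDH (47.5). Neighbours in the shMIRE order did not overlap between libraries. In shControl the levels per kilobase of CEBPB (1427 and 1845) and TXNRD1 (1451 and 1284) overlapped, as did those of SLC7A11 (82.6 and 53.3) and PHGDH (33.7 and 61.2). CEBPB and TRIB3 exchanged places between the groups: CEBPB stood above TRIB3 in shMIRE, with levels per kilobase of 3621 and 2929 against 1193 and 1048 for TRIB3, and below it in shControl, with 1427 and 1845 against 4489 and 4990.

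**Figure D3:**
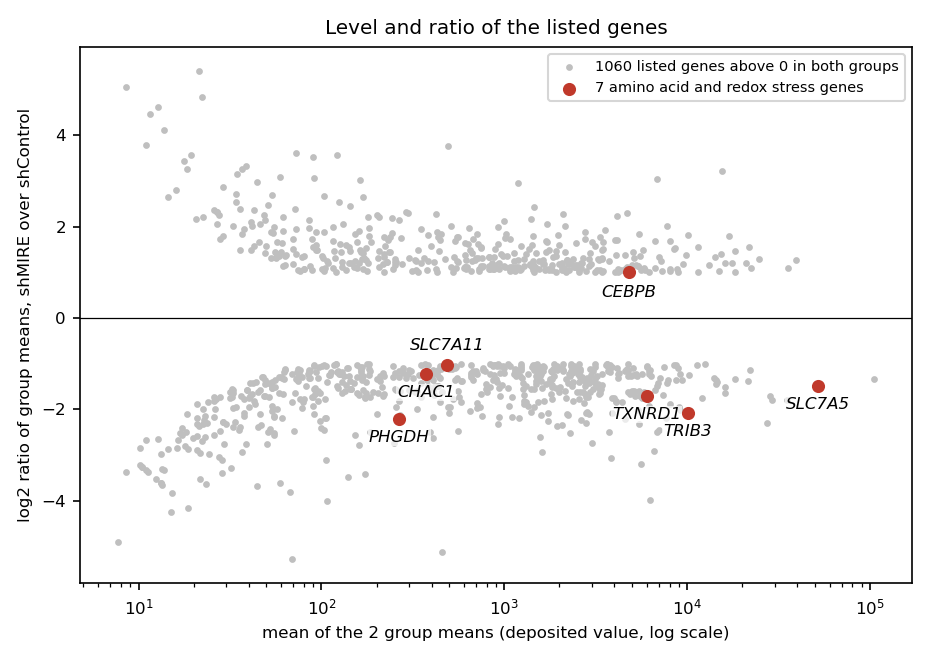
Mean of the group means (x axis, deposited value, log scale) against the log2 ratio of group means, shMIRE over shControl (y axis), for the listed genes above 0 in both groups (grey) and the 7 genes (red). The grey points leave an empty band between ratios of about 2-fold lower and 2-fold higher, CEBPB lies on its upper edge, and SLC7A5 is among the genes of highest value.

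Other genes of these pathways were taken from 9 lists on ATF4 and the integrated stress response, amino acid transporters, aminoacyl-tRNA synthetases, serine and one-carbon metabolism, NRF2 targets, thioredoxin and glutathione enzymes, C/EBP and Tribbles relatives, eIF2 and its kinases, and amino acid sensing to mTORC1. Of their 221 distinct genes other than the 7, 10 were listed and the others were not analysed here. With limma 7 of the 10 fell and 3 rose at an adjusted p under 0.05, where 59.0% of all listed genes passed as lower and 38.5% as higher. The 10 genes were listed for the same difference, so their p-values, here and below, are descriptions and not independent evidence. Their median log2 fold change was -1.14, against -1.16 over all listed genes, and both medians mix lower and higher genes.

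Of 36 genes of the ATF4 list, 8 were listed, the 6 that are described above and DDIT4 and GPT2. DDIT4, a stress-induced inhibitor of mTORC1 that hypoxia also raises, had values of 2985 and 2683 in shMIRE, against 8024 and 9493 in shControl. It fell 3.09-fold in shMIRE (limma adjusted p = 0.00019). GPT2, the mitochondrial alanine aminotransferase, had 1336 and 1267 in shMIRE, against 2711 and 3103 in shControl, and fell 2.23-fold (limma adjusted p = 0.00034). CEBPB was higher and the other 7 listed genes of the ATF4 list were lower in shMIRE, as were 713 of all 1176 listed genes; 6 of these 8 are members, so the count says nothing particular about the list.

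Among 39 amino acid transporter genes, 4 were listed. Besides the members SLC7A5 and SLC7A11 these were SLC6A6, the taurine transporter, and SLC6A15, a transporter of neutral amino acids. SLC6A6 had values of 5614 and 5543 in shMIRE, against 11526 and 11265 in shControl, and fell 2.04-fold (limma adjusted p = 0.00013). SLC6A15 was low, with 11 and 15 in shMIRE, against 55 and 121 in shControl, and fell 6.77-fold (limma adjusted p = 0.0060). Its call was lost without shMIRE replicate 1 or 2 (limma adjusted p = 0.091 and 0.069). Neither SLC3A2, the heavy chain that LAT1 and xCT share, nor the other transporters of the list were analysed here. The list of 39 does not hold all members of the SLC6 family. SLC6A12, which it leaves out, had 55 and 39 in shMIRE, against 147 and 175 in shControl. SLC6A13, also left out, had 33 and 36 in shMIRE, against 117 and 130 in shControl.

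In the redox lists, MSRA and GSTM3 fell and GPX2 rose. MSRA, a methionine sulfoxide reductase whose activity draws on thioredoxin, had values of 263 and 248 in shMIRE, against 534 and 589 in shControl, and fell 2.20-fold (limma adjusted p = 0.0012). The glutathione transferase gene GSTM3 had 3 and 6 in shMIRE, against 16 and 47 in shControl (7-fold lower, limma adjusted p = 0.018). Its call was lost without shMIRE replicate 1 or 2 (limma adjusted p = 0.17 and 0.098), without shControl replicate 2 (0.10) and with quantile normalisation (0.10). GPX2, a glutathione peroxidase and NRF2 target, had 5 and 10 in shMIRE and was listed at 0 in both shControl libraries (limma adjusted p = 0.0027). These values are near 0, and GPX2 was not fitted when only genes with a mean above 5 were kept. TXNRD1 and SLC7A11, the other listed genes of 31 NRF2 targets, had higher values than GPX2 and were lower in shMIRE.

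Of 33 genes that sense amino acids or relay them to mTORC1, the kinase complex that LAT1 substrates activate, 3 were listed. CASTOR1, an arginine sensor, had values of 710 and 834 in shMIRE, against 296 and 352 in shControl, and rose 2.38-fold (limma adjusted p = 0.0013). FNIP2, a partner of folliculin, had 2579 and 2713 in shMIRE, against 1075 and 1033 in shControl, and rose 2.51-fold (limma adjusted p = 0.00014). LAMTOR4, a subunit of the Ragulator complex on lysosomes, had 1010 and 972 in shMIRE, against 2679 and 3022 in shControl, and fell 2.88-fold (limma adjusted p = 0.00016). PHGDH was the 1 listed gene of 18 for serine, glycine and one-carbon metabolism, and CEBPB and TRIB3 were the 2 listed genes of 9 for the C/EBP and Tribbles families. Of 20 cytosolic aminoacyl-tRNA synthetase genes and of 13 genes for eIF2, eIF2B and the eIF2 kinases, 0 were listed.

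The listed genes whose pattern was most like that of each member were found by the Euclidean distance between log2 profiles over the 4 libraries, each centred on its own mean. Nearest to SLC7A5 were CEACAM19 (distance 0.048) and HMGB1 (0.055), and the median distance of all other listed genes from SLC7A5 was 1.70. HMGB1 had values of 8189 and 8406 in shMIRE, against 23664 and 23752 in shControl. Close to TXNRD1 was PLEKHA2 (0.051), nearest to TRIB3 were ZNF580 (0.099) and CCND1 (0.13), and nearest to CHAC1 were TECPR1 (0.053) and KCMF1 (0.067). CEBPB was nearest to RELB (0.087), with 8719 and 7034 in shMIRE and 3281 and 4133 in shControl, and to MIOX (0.12). The 2 smallest distances were 0.16 to PLEKHH2 and 0.19 to FAM174B for SLC7A11, and 0.18 to BEX1 and 0.18 to CDKN2A for PHGDH, whose spread CDKN2A and BEX1 share. The mean profile of the 7 genes was closest to SLC35A2 (0.038), LAD1 (0.057), IFITM1 (0.057), DHFR2 (0.061) and SMPDL3A (0.068). With 4 libraries in 2 groups such distances mostly reflect the size of the group difference.

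The start regions of the genes were searched for the elements through which ATF4 and NRF2 are known to act. RefSeq windows (GRCh38.p14) of 300 bases, 250 before to 50 after an annotated start, were found for 6 of the 7 genes. TRIB3, CEBPB and TXNRD1 had several windows. SLC7A11 had no window and was not searched. The C/EBP-ATF response element was searched as TGATGNAAN and the core of the antioxidant response element as TGACNNNGC, on both strands. Of all 35116 windows, 3.61% held the first and 13.3% the second. The 6 genes had 10 windows. The first was found in 1 of the 10, that of CHAC1, where it begins 210 bases before the start and reads on the minus strand. The second was found in 7 of the 10 windows, but the 3 TRIB3 windows overlap and hold the same match. That match lies after the start in all but the third of them. Counted by gene, 4 of the 6 had a match, and genes with several windows had more chances of one. The windows are rich in G and C, up to 80.3% in SLC7A5, and the share among windows of like content was not examined. The PHGDH window held neither element. In TXNRD1 matches begin 99 and 8 bases before one annotated start, where the match at 8 bases runs across the start, and 102 bases before another. One of the 2 CEBPB windows had a match. It has the same letters, TGACGCAGC, as the match in SLC7A5, although the genes differed in opposite directions. In CEBPB it begins 57 bases before the start and lies wholly before it, whereas in SLC7A5 it begins 2 bases before the start and 7 of its 9 letters lie after it. These matches describe letters in a window and are neither sites of binding nor a cause.

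The windows of CHAC1 (chr15:40953221-40953520, plus strand), SLC7A5 (chr16:87869458-87869757, minus strand) and CEBPB (chr20:50190580-50190879, plus strand) are shown because they hold the 1 match to the ATF4 element and the pair of identical matches. Capitals mark the matches, and each is written 5′ to 3′ on the strand of the gene.
CHAC1: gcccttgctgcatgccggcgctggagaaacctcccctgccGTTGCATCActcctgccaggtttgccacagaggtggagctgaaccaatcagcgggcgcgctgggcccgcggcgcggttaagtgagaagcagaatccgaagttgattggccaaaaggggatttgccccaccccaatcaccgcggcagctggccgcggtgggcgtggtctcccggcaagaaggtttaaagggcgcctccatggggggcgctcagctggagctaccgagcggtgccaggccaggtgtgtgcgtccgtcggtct
SLC7A5: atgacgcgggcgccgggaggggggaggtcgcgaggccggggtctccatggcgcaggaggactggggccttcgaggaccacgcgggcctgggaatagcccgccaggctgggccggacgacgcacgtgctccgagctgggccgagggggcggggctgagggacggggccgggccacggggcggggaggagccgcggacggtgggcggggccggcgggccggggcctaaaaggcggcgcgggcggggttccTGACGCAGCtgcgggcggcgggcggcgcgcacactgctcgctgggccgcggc
CEBPB: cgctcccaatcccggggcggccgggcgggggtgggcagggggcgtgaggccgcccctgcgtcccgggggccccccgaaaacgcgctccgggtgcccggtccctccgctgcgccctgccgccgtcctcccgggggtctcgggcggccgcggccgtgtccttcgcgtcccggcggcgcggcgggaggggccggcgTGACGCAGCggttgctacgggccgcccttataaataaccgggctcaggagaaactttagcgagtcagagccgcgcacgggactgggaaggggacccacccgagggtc

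In these same libraries the heptamer GCTGTGT had been found more often in the 3′ UTRs of genes lower in shMIRE than of genes higher in it, so its presence in the members is a description and no independent finding. With the longest 3′ UTR of each gene in GENCODE 29, it was present in 289 of 704 lower genes (41.1%) and 84 of 459 higher genes (18.3%), and in 18.1% of 19071 protein-coding genes of the annotation. The median 3′ UTR had 1286.5 bases in the lower genes and 1653 in the higher ones. Of the 7 genes, 3 carried it, all of them lower in shMIRE: SLC7A5 had 2 matches, and TRIB3 and TXNRD1 had 1 each. With 3 of the 6 lower genes, against 41.1% of all listed lower genes, the count says nothing particular about the members. These 3 also had the highest levels per kilobase among the 6 lower genes, in shMIRE and in shControl. A relation of the heptamer to level was not examined over the other listed genes. The other lower genes, SLC7A11, CHAC1 and PHGDH, had 0 matches, as did CEBPB.

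**Figure D4:**
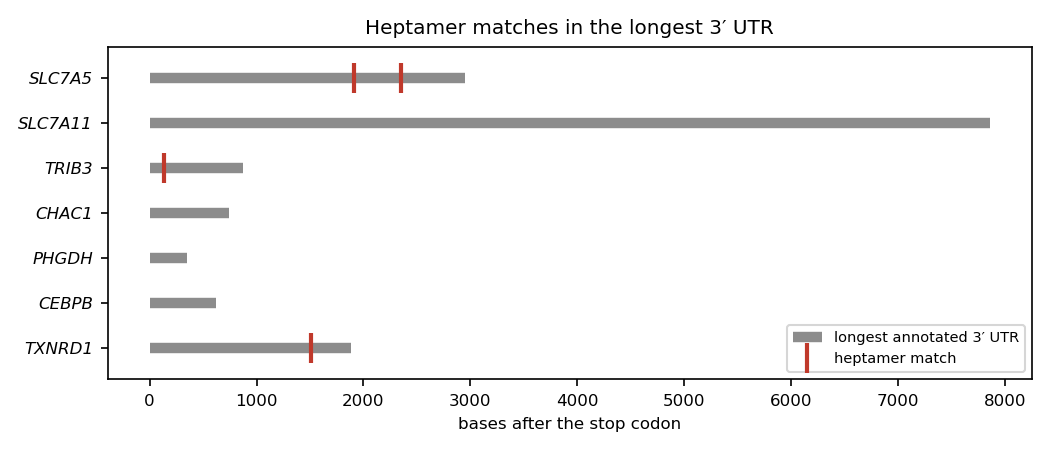
Longest annotated 3′ UTR of each of the 7 genes, drawn to scale from the stop codon (x axis, bases after the stop codon), with heptamer matches as red ticks. SLC7A5 has 2 ticks, TRIB3 and TXNRD1 have 1 each, and the 3′ UTR of SLC7A11, the longest at 7859 bases, has none.

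Length alone changes how often a heptamer occurs, so its share was also taken among protein-coding genes whose longest 3′ UTR lay within 20% of the member's length. For TRIB3, with 869 bases, that share was 10.8%. For TXNRD1, with 1884 bases, it was 22.8%, and for SLC7A5, with 2947 bases, 30.2%. For SLC7A11, which had 0 matches in 7859 bases, it was 58.1%. The shares for PHGDH (353 bases), CEBPB (618 bases) and CHAC1 (745 bases) were 4.81%, 7.90% and 9.44%.

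The 4 matches lie at these positions of GRCh38, each shown with 11 bases on either side in the sense of the mRNA and the heptamer in capitals: SLC7A5 at chr16:87831046-87831074 and chr16:87830606-87830634 on the minus strand, TRIB3 at chr20:396816-396844 and TXNRD1 at chr12:104349918-104349946 on the plus strand. They begin 1907 and 2347 bases after the stop codon in SLC7A5, 137 bases after it in TRIB3 and 1508 bases after it in TXNRD1.
SLC7A5 first match: cctggtgcattGCTGTGTgaatccaggag
SLC7A5 second match: tgatccttggtGCTGTGTgccccactcca
TRIB3: gtgtggagtgtGCTGTGTacacatctgct
TXNRD1: catctcatttgGCTGTGTaaagaaatggg

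Some of the values can hold reads of other loci. SLC7A5 has the annotated pseudogenes SLC7A5P1 and SLC7A5P2, and exons of SLC7A5, SLC7A11 and CEBPB overlap antisense genes in GENCODE 29. How reads were assigned among them is not given in the sources used here.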

How the data were processed

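RNA from RCC4 cells with shMIRE (n = 2) or shControl (n = 2) was measured by RNA sequencing on day 3. Per the labels' protocols, libraries were prepared from poly-A RNA with an Illumina TruSeq kit (1 µg input). DESeq2 1.20.0, featureCounts 1.5.0-p3, HISAT2 2.0.5 and build hg38 are named in the submitters' processing notes, without their roles. The deposited values are whole numbers that look already scaled between libraries and rounded, so they were handled as a score and not as raw read numbers, and no count model was run. The rule by which the authors listed 1176 genes is not given in the sources used here; 2 of them have a fold just under 2.

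Symbols were matched for 1175 of 1176 gene IDs, and coordinates, exon lengths and 3′ UTRs come from GENCODE 29 (GRCh38). Values were taken as log2(value + 1), which understates folds of low genes, and all listed genes with a mean above 1 (all 1176) were fitted with limma 3.58.1 in R 4.3.3, with its intensity trend, no covariates and Benjamini-Hochberg adjustment over all of them at 0.05, two-sided. The fit was tested on simulated data in which most genes did not change. The listed genes were nearly all different between the groups, so that test says little about the fit on them. The p-values of listed genes are not independent evidence, because the genes were listed for the same difference. Named genes are the 7 members, every listed gene of the 9 pathway lists, and the nearest profiles (2 for each member, 5 for their mean), of which 1 is not reported here; markers and genes that share the spread of PHGDH were named beside them. The members and lists were chosen with earlier results of these data known.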

Additional observations from a re-analysis of the deposited data

How the results depend on the processing

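The direction of all 7 genes was kept under each of the 11 alternatives fitted for each (other scalings, filters and pseudocount, no intensity trend, the replicate block, and each library left out). Most alternatives could not reverse it: the groups did not overlap, and the filters, trend and block leave the fold change as it is. Both rescalings moved SLC7A5, TRIB3, CHAC1, CEBPB and TXNRD1 by at least the pooled SD of their replicates, but not SLC7A11 and PHGDH. Quantile normalisation and rescaling of each library to 1 common sum raised the log2 fold change of the median gene by 0.32 and 0.30, and 0 listed genes changed sign. The log2 fold change of the 7 genes ranged from -1.50 to -1.19 for SLC7A5, -1.31 to -0.68 for SLC7A11, -2.18 to -1.78 for TRIB3, -1.32 to -0.93 for CHAC1, -3.47 to -1.45 for PHGDH, 0.82 to 1.41 for CEBPB and -1.79 to -1.33 for TXNRD1. With limma 694 listed genes passed as lower and 453 as higher; leaving out 1 library (the remaining one then borrows its variance from the other group) gave 467 to 553 and 345 to 360. The replicate block gave 712 lower and 463 higher genes, and 7 and 3 among the listed pathway genes, as without it; the within-group deviations of libraries with the same number had a correlation of 0.032, and the numbers were treated as names only. The pathway counts ranged from 5 to 7 lower and 2 to 3 higher over the alternatives. GPX2, with a low mean, was not fitted when only genes with a mean above 5 were kept. The depth of the libraries is unknown, so no counting limits are given.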
